A study of Mus musculus with 10 samples.

Results

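Chil1, Chil3, Chil4, Retnla, Retnlb, Arg1, Mrc1, Clec10a, Pdcd1lg2 and Ch25h are the chitinase-like lectins, the resistin-like proteins and other genes commonly read as marks of alternatively activated macrophages. These 10 genes, of 54446 in the deposited table, were taken by symbol, whatever their values. They were followed in 10 libraries of RNA from whole esophagus, made by CEL-Seq, a method that counts reads from the 3′ ends of polyadenylated transcripts. All mice were WT C57BL/6. The 5 vehicle libraries (A1 to A5) came from control mice, and the 5 OXA libraries (C1 and D1 to D4) came from mice in which experimental eosinophilic esophagitis was induced with the hapten oxazolone (OXA). None of the sources used here gives dose, schedule, age or sex. The labels do not say that the libraries of a group came from separate animals, so a p-value covers only the variation among these libraries, which may be technical.

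Chitinase-like proteins have the fold of the chitinases that cut chitin but have lost the cutting activity, and resistin-like proteins are small secreted cysteine-rich proteins. Interleukin-4 and interleukin-13, the cytokines of allergic inflammation, act through the receptor chain Il4ra and the transcription factor Stat6. In macrophages this induces several of these genes, a state called alternative activation, and epithelial cells and other leukocytes can also make some of the same proteins.

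Because Stat6 is the factor known for this induction, the sequence just before the gene start was searched for the palindromes that STAT dimers bind, TTCNNNGAA and TTCNNNNGAA. Stat6 is known to accept the longer spacing. Both motifs read the same on both strands, and neither contains the other. RefSeq promoter sequence (mouse build GRCm38.p6) was at hand for 7 of the 10 genes. Of those 7, the promoters of 4 held a motif within the 250 bases before the start site, against 12.6% of 27025 promoters in the same table (7.18% for TTCNNNGAA and 5.86% for TTCNNNNGAA). The 4 sequences are shown because they carry a match. They are written 5′ to 3′ on the strand of the gene, end before the gene's start in the deposited table, and have the motif in capitals.
Chil3, chr3:106167565-106167814, minus strand: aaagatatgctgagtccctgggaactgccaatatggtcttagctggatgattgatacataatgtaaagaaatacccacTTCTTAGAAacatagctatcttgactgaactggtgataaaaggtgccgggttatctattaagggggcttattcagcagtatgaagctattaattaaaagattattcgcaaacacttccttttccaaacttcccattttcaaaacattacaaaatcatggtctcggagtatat
Chil4, chr3:106219508-106219729, minus strand: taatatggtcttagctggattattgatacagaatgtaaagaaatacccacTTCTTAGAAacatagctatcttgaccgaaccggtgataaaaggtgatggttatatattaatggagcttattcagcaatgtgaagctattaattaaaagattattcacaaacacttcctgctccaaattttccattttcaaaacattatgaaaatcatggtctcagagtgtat
Retnla, chr16:48842359-48842550, plus strand: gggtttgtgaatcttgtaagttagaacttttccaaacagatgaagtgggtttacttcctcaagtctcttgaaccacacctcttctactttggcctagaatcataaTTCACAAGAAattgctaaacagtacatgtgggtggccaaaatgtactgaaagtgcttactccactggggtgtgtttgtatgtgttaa
Pdcd1lg2, chr19:29410669-29410918, plus strand: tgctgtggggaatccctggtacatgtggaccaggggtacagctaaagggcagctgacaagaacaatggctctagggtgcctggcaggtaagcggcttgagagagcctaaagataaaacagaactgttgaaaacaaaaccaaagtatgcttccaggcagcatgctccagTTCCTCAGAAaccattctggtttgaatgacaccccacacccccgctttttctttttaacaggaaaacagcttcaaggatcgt
Counted from the end of the stretch shown, TTCTTAGAA began 172 bases upstream in both Chil3 and Chil4, TTCACAAGAA began 87 bases upstream in Retnla and TTCCTCAGAA began 82 bases upstream in Pdcd1lg2. The RefSeq start lies 28 bases further into the gene for Chil4 and 58 for Retnla, and those bases were searched but are not shown. The stretches of Chil3 and Chil4 were 91.0% identical over 221 aligned bases, and they share the 9 bases of the motif. Neither motif was found in the windows of Chil1, Mrc1 or Ch25h. A match is a stretch of letters and not a measured binding site.

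Depth ran from 3675479 reads (D2) to 12108822 (A4) per library. A count of 0 allows up to 3 reads, which is 1.56 normalized counts in A4 and 5.43 in D2. The normalized counts are the authors' own, reads divided by a size factor per library. Fold changes are differences of mean log2(normalized count + 1), OXA minus vehicle, ± SE from limma, with p-values adjusted by Benjamini-Hochberg over the 14712 genes tested. That scale understates the change of genes with few reads. As a check of the tissue, all 11 markers of squamous epithelium passed the filter on low values. Their summed level was 590913 to 1001391 normalized counts in vehicle and 217543 to 534407 in OXA, and Krt4 and Krt13 carried most of it. By limma 2 of the 11 were higher in OXA (Krt14 and Dsg3) and 3 were lower (Krt15, Krt78 and Krt4). The other 6 were not called, and the median log2 fold change of the 11 was -0.10. Markers of other tissues were read too. The 9 skeletal muscle markers summed to 114962 to 152295 normalized counts in vehicle and, over a wider range, 54054 to 227424 in OXA. Stomach markers summed to 97.1 to 459 in vehicle and 41.2 to 263 in OXA. How the make-up of the tissue differed among libraries was not tested.

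Of the 10 genes, 9 passed the filter (a mean of at least 5 normalized counts). By limma 7 of these were higher in OXA, 0 were lower and 2 (Arg1 and Ch25h) did not pass the test. Over all genes tested 29.9% were called, 15.7% as higher and 14.2% as lower. Pdcd1lg2 passed the filter through its OXA libraries alone. So did some genes counted in the lists below, among them Retnlg, Pdcd1, Ctla4, Clec9a, Clec4e and Ido1. For each of the 7, every OXA library lay above every vehicle library, an order that 12.0% of all genes tested showed (10.4% had every OXA library below). With every assignment of the libraries enumerated (an exact permutation test, two-sided), each of the 7 had p = 0.00794, the smallest that 5 against 5 allows. In whole tissue, more cells of a type and more RNA per cell cannot be told apart. Among all calls, 52.5% were increases. With reads scaled to library totals (CPM) 65.3% were, and the median change of all genes moved from -0.01 to 0.11 on the log2 scale. The 7 calls stood under that scaling too.

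**Figure D1:**
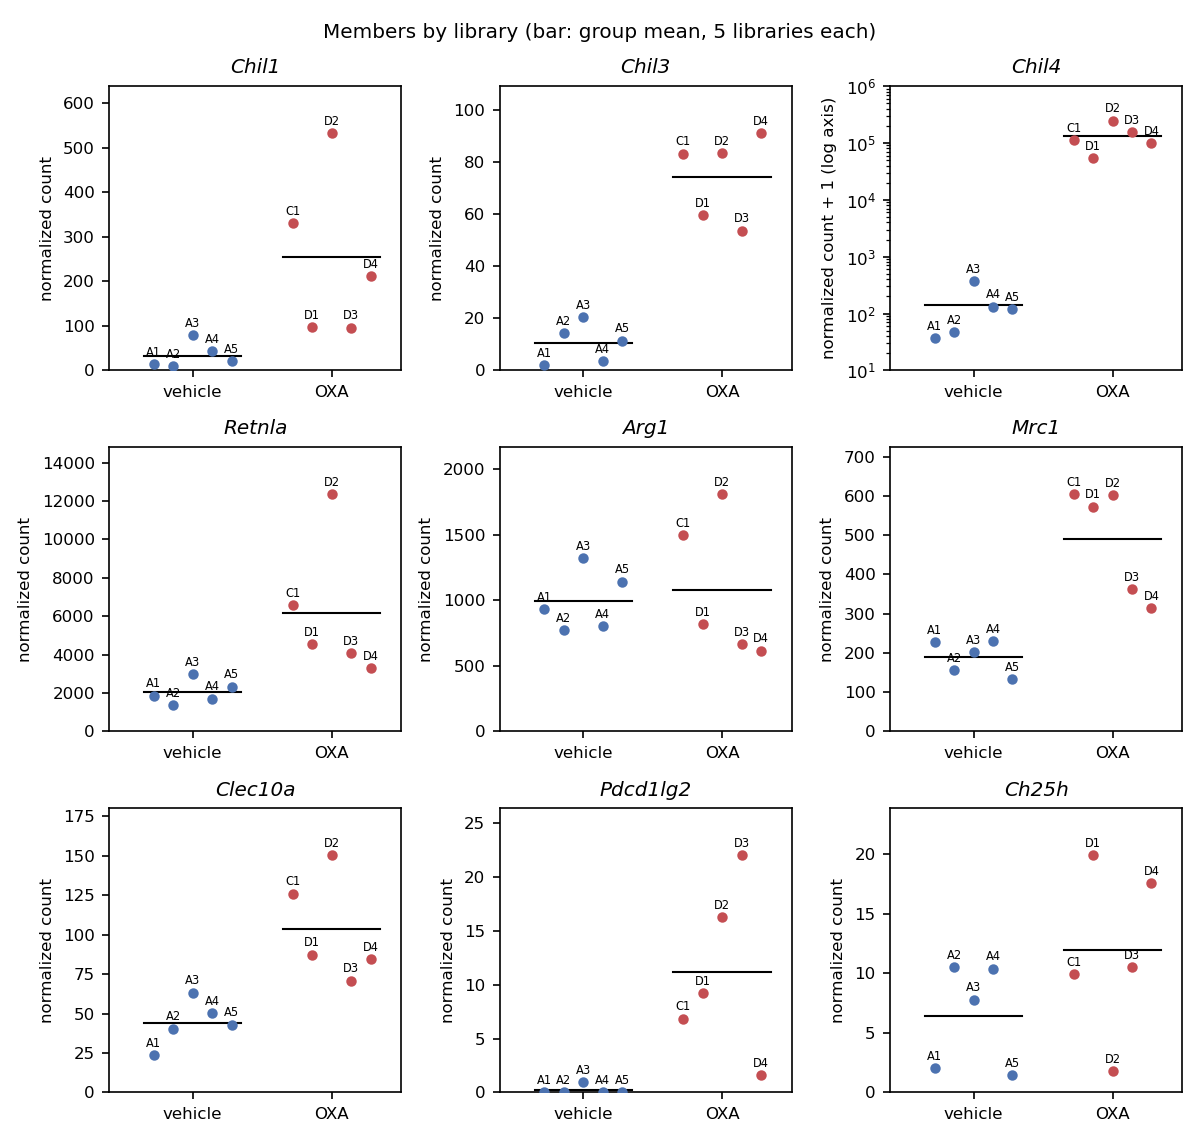
Normalized counts of the 9 genes that passed the low-value filter, in each library (points, with library names), with the group mean of 5 libraries as a bar. The axis of Chil4 is logarithmic and shows the normalized count + 1. For 7 genes every OXA point lies above every vehicle point, and for Arg1 and Ch25h the groups overlap.

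**Figure D2:**
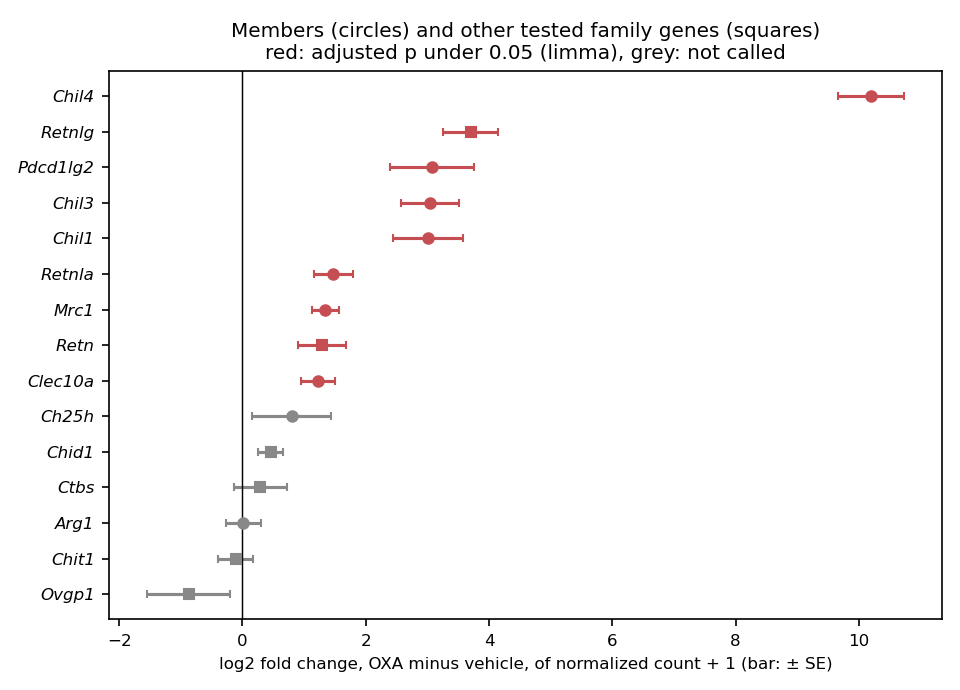
Log2 fold change, OXA minus vehicle, of the normalized count + 1 (bars: SE) for the 9 genes (circles) and the other tested genes of the chitinase and resistin families (squares), with genes called by limma in red. Chil4 at 10.20 stands far to the right of the others, and Arg1 and Chit1 lie at 0.01 and -0.11.

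The 3 chitinase-like lectins followed here all rose in OXA. Chil4 (ENSMUSG00000063779.6, GRCm38 chromosome 3, 106201190 to 106219507) encodes the secreted lectin called Ym2. In vehicle it stood at 36.0 (A1), 46.5 (A2), 370.3 (A3), 131 (A4) and 119 (A5) normalized counts. In OXA it stood at 112526 (C1), 54495 (D1), 246902 (D2), 154915 (D3) and 97582 (D4). A3 was the highest vehicle library and D1 the lowest OXA library, and a wide gap separated the groups. The mean went from 141 ± 135 to 133284 ± 72956 (SD, n = 5 each), a 948-fold ratio of means and a log2 fold change of 10.20 ± 0.54 (limma adjusted p = 4.71e-08).

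So large a level made Chil4 one of the most read genes of the inflamed esophagus. Its reads were 0.00203% ± 0.00186 (SD, n = 5) of a vehicle library and 2.14% ± 1.06 of an OXA library. By normalized count Chil4 was the second gene in D2 and D3, rank 3 in C1, rank 4 in D4 and rank 12 in D1. In vehicle its rank lay between 2639 (A3) and 10165 (A1).

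Chil3 (ENSMUSG00000040809.10, chromosome 3, 106147254 to 106167564) is the neighbouring gene and encodes Ym1, the form best known from macrophages. It stood at 2.05 (A1), 14.25 (A2), 20.5 (A3), 3.64 (A4) and 11.45 (A5) normalized counts in vehicle. In OXA it stood at 83.2 (C1), 59.7 (D1), 83.3 (D2), 53.6 (D3) and 91.0 (D4). The OXA libraries were close to each other, 1.70-fold from lowest to highest, whereas the lowest and highest OXA values of Chil4 differed 4.53-fold. The mean of Chil3 rose from 10.4 ± 7.62 to 74.2 ± 16.4, 7.15-fold, or 3.04 ± 0.47 on the log2 scale (limma adjusted p = 3.22e-04).

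Reads of the pair can be confused. The transcripts of Chil4 and Chil3 in GENCODE M21 were 94.4% identical over 1538 aligned bases. In the last 500 bases, the end that CEL-Seq reads, 77 of 451 windows of 50 bases of Chil4 were also present in Chil3. Chil3 gave 9.12% ± 8.30 of the reads of the pair in vehicle (from 2.69% in A4 to 23.5% in A2) and 0.0690% ± 0.0342 in OXA (from 0.0337% in D2 to 0.109% in D1). The difference of -9.05 percentage points had an exact permutation p of 0.00794, and without A2 it was -5.46. Because Chil4 rose far more than Chil3, this fall follows from the values above and is not a separate result. The vehicle shares rest on few Chil3 reads, such as 2 in A1 and 7 in A4. With the values of both genes summed the pair rose by 10.06 on the log2 scale (limma adjusted p = 3.96e-08). Chil4 carried nearly all of that sum in OXA. How many of the Chil3 reads in OXA came from Chil4 transcripts was not tested, and neither the share nor the sum can show it.

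**Figure D3:**
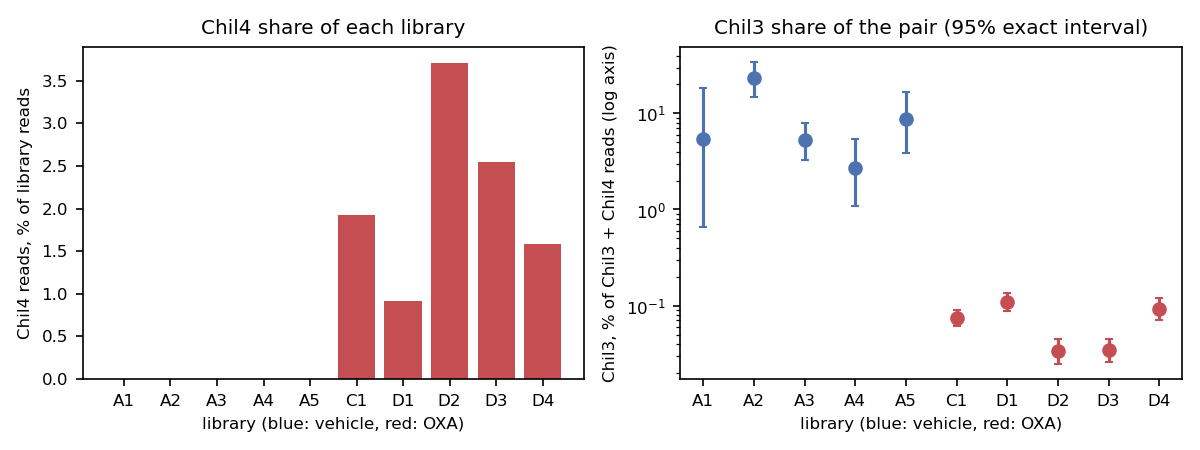
Left, Chil4 reads as a percentage of all reads of each library, near 0 in the 5 vehicle libraries and from 0.917% (D1) to 3.71% (D2) in OXA. Right, Chil3 as a percentage of Chil3 plus Chil4 reads on a log axis with exact 95% binomial intervals, which cover counting error only: every OXA library lies below every vehicle library.

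Chil1 (ENSMUSG00000064246.10, chromosome 1, 134182176 to 134190481) encodes a chitinase-like protein made by macrophages, neutrophils and epithelia. Its vehicle values were 13.4 (A1), 9.00 (A2), 79.9 (A3), 42.6 (A4) and 20.03 (A5) normalized counts. Its OXA values were 331 (C1), 97.4 (D1), 532 (D2), 95.8 (D3) and 212 (D4). A3 in vehicle came close to D1 and D3, the lowest of the OXA group, without reaching them. The mean rose from 33.0 ± 29.2 to 254 ± 183, 7.69-fold, or 3.01 ± 0.57 on the log2 scale (limma adjusted p = 0.00137).

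No call was made for the chitinases proper. Chit1, the chitin-cutting enzyme chitotriosidase and the neighbour of Chil1 on chromosome 1, had 1000.1 ± 322 normalized counts in vehicle and 952 ± 368 in OXA (-0.11 ± 0.28, limma adjusted p = 0.798). No window of 50 bases in the last 500 bases of the Chil1 transcript was found in Chit1. Chia1, the acidic chitinase, had 7 reads in all vehicle libraries together and 3 in OXA. Chil6, by its name chitinase-like and not a chitinase proper, had 4 and 0.

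Chil5, a further chitinase-like gene, had 0 reads in vehicle and 17 in OXA, in 4 of the 5 libraries, with an exact permutation p of 0.0476. Its mean of 2.97 ± 1.85 normalized counts lay under the filter of the fit. Chid1, a chitinase-domain protein of lysosomes, went from 69.1 ± 15.4 to 95.1 ± 18.4 (0.46 ± 0.20, limma adjusted p = 0.105) and passed under 3 of 23 other settings. Ctbs, the lysosomal chitobiase, stood at 18.2 ± 10.6 and 19.9 ± 5.37, and Ovgp1, the oviductal glycoprotein, at 7.23 ± 3.71 and 4.51 ± 4.06. Of the 7 tested genes in this family list of 10, 3 were higher and 0 were lower. Those 3 are Chil1, Chil3 and Chil4, so the count repeats the results above. The other 4 were not called: Chid1 at 0.46, Ctbs at 0.29, Chit1 at -0.11 and Ovgp1 at -0.87 on the log2 scale. The median of the 7 was 0.46, the value of Chid1, against -0.01 over all genes tested.

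Among the resistin-like genes Retnla rose and Retnlb was not read at all. Retnla (ENSMUSG00000061100.4, chromosome 16, 48842551 to 48844761), which encodes the secreted protein RELM-alpha, was already abundant in control tissue. Its vehicle values were 1858 (A1), 1366 (A2), 2984 (A3), 1699 (A4) and 2327 (A5) normalized counts. Its OXA values were 6587 (C1), 4529 (D1), 12340.0 (D2), 4064.5 (D3) and 3285 (D4). The lowest OXA library, D4, was only just above A3, and D2 was far above the other OXA libraries. The mean rose from 2047 ± 628 to 6161 ± 3664, 3.01-fold, or 1.47 ± 0.32 on the log2 scale (limma adjusted p = 0.00315).

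Retnlb (ENSMUSG00000022650.7, chromosome 16, 48816856 to 48819192), a product of intestinal goblet cells, had 0 reads in all 10 libraries, so no difference was detectable at this depth. Retnlg, a relative known from neutrophils and bone marrow, rose from 1.55 ± 0.58 to 36.2 ± 22.1 normalized counts, 3.70 ± 0.45 on the log2 scale (limma adjusted p = 4.58e-05). Its vehicle total was 9 reads against 202 in OXA, so Retnlg passed the filter through its OXA libraries alone. The transcripts of Retnla and Retnlg were 84.5% identical, with no shared window of 50 bases in the last 500 bases of Retnla.

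Retn, resistin itself and a product of fat cells in mice, rose from 13.1 ± 2.91 to 37.4 ± 17.5 normalized counts, 1.29 ± 0.39 on the log2 scale (limma adjusted p = 0.0240). The groups overlapped, since D4 at 11.2 lay below 4 of the vehicle libraries. The call was lost without A5, D2 or D3 (limma adjusted p = 0.0541 to 0.0602). All 3 tested genes of the resistin family were thus higher, though Retnlg was tested only because of its OXA libraries. Their median of 1.47 is the value of Retnla itself.

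Markers of cells known to make resistin-like proteins moved as follows. Of 9 adipocyte markers other than Retn 8 were tested, 2 were higher (Fabp4 and Cfd) and 0 lower, and their sum was 2593 to 4745 normalized counts in vehicle and 2945 to 5613 in OXA. Of 12 neutrophil markers other than Retnlg 5 were tested, 2 were higher (Ltf and Csf3r) and 2 lower (Il1r2 and Camp). Il1r2 carried most of their sum: with it the sum was 527 to 705 in vehicle and 96.7 to 208 in OXA, and without it 66.8 to 78.0 and 70.9 to 176. Of 11 goblet cell and intestine markers 4 were tested and 2 were higher (Spdef and Fcgbp), with Tff3 at 0 in every library and sums of 43.8 to 60.6 and 57.5 to 165. The part of these cells in the resistin-like results was not tested.

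The surface lectins of macrophages and dendritic cells both rose. Mrc1 (ENSMUSG00000026712.3, chromosome 2, 14229392 to 14332357) encodes the mannose receptor CD206, an endocytic receptor for mannose-bearing glycoproteins. It stood at 227 (A1), 155 (A2), 203 (A3), 230.1 (A4) and 133 (A5) normalized counts in vehicle. In OXA it stood at 604 (C1), 572 (D1), 601 (D2), 363 (D3) and 314 (D4). Within OXA, C1, D1 and D2 formed a high trio and D3 and D4 were lower, yet all were above vehicle. The mean rose from 190 ± 43.5 to 491 ± 141, 2.59-fold, or 1.35 ± 0.22 on the log2 scale (limma adjusted p = 4.75e-04).

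Clec10a (ENSMUSG00000000318.16, chromosome 11, 70156197 to 70171134) encodes a lectin for galactose and N-acetylgalactosamine. It stood at 23.6 (A1), 40.5 (A2), 63.3 (A3), 50.4 (A4) and 42.9 (A5) normalized counts in vehicle. In OXA it stood at 126 (C1), 87.4 (D1), 150.3 (D2), 70.9 (D3) and 84.6 (D4). D3, the lowest OXA library, was close to A3, the highest vehicle library. The mean rose from 44.2 ± 14.5 to 104 ± 33.1, 2.35-fold, or 1.23 ± 0.28 on the log2 scale (limma adjusted p = 0.00419).

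Mgl2, the close relative next to Clec10a, was chosen for comparison after its values were seen. It went from 101 ± 26.1 to 141 ± 108 normalized counts and did not pass (0.18 ± 0.41, limma adjusted p = 0.774). D2 at 315 was high and D4 at 43.1 was below every vehicle library. The transcripts of the pair were 84.6% identical, with no shared window of 50 bases in the last 500 bases of Clec10a.

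Among other myeloid C-type lectins the same direction was common. Of 23 listed besides Mrc1 and Clec10a, 18 were tested, 10 were higher and 0 lower, with a median log2 fold change of 1.96 (all genes tested: -0.01). Clec7a, the beta-glucan receptor dectin-1, rose on average from 21.7 to 276 normalized counts, 3.65 ± 0.35 on the log2 scale (limma adjusted p = 7.66e-06). Clec12a, an inhibitory receptor, rose by 3.12 ± 0.33, Clec4a3 by 2.51 ± 0.24 and Clec4a1 by 2.17 ± 0.26.

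Pdcd1lg2 (ENSMUSG00000016498.9, chromosome 19, 29410919 to 29471457) encodes PD-L2, a ligand of the inhibitory T cell receptor PD-1, made by activated macrophages and dendritic cells. It was at 0 in A1, A2, A4 and A5, and at 0.97 in A3, which was a single read. In OXA it stood at 6.87 (C1), 9.24 (D1), 16.3 (D2), 22.0 (D3) and 1.60 (D4) normalized counts. D4 also held a single read and lay above A3 only through its size factor, so the gap between the groups rests there on 1 read against 1. The other 4 OXA libraries held 9 to 23 reads. In reads the groups had 1 and 55, a ratio of 66.3 after scaling for depth, with an exact 95% interval of 11.4 to 2667 that covers counting error only. The log2 fold change was 3.07 ± 0.68 (limma adjusted p = 0.00373) and ran from 1.32 with CPM to 5.52 with DESeq2 on the reads. It was past the threshold in each of the 19 settings that gave a value. Because Pdcd1lg2 passed the filter through its OXA libraries alone, neither that p-value nor the count of settings is separate support for the rise.

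Its receptor and the partner ligand rose too. Pdcd1, which encodes PD-1, rose from 0.928 ± 1.38 to 15.6 ± 1.82 normalized counts, 3.37 ± 0.54 on the log2 scale (limma adjusted p = 3.85e-04). Like Pdcd1lg2, Pdcd1 passed the filter through its OXA libraries alone. Cd274, which encodes the other ligand PD-L1, rose from 6.43 ± 3.59 to 35.2 ± 11.5, or 2.35 ± 0.38 (limma adjusted p = 4.41e-04). Icos, a costimulatory receptor of activated T cells, rose by 3.05 ± 0.35, and Vsir, an inhibitory ligand of myeloid cells, by 1.40 ± 0.21. Of the other 12 genes of this ligand and receptor family 11 were tested, 7 were higher and 1, Icosl, was lower, with a median of 1.40. With a mean of at least 20 as the filter, 4 were higher. T cell markers moved with them: of 10 T cell and innate lymphoid markers besides Icos all were tested, 5 were higher (Trbc2, Cd3d, Il7r, Cd4 and Cd8a) and 0 lower. The median log2 fold change of these 10 was 1.76. Their sum was 1182 to 1656 normalized counts in vehicle and 1241 to 1973 in OXA, and Rora and Thy1, neither of them called, carried most of it. The part of T cells in the rise of Pdcd1 and Icos was not tested.

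The enzyme Arg1, by contrast, did not pass the test in either direction. Arg1 (ENSMUSG00000019987.9, chromosome 10, 24914921 to 24927484) encodes arginase, which splits arginine into urea and ornithine, and in mice it is the best-known enzyme of alternatively activated macrophages. Its vehicle values were 931 (A1), 772 (A2), 1321 (A3), 803 (A4) and 1143 (A5) normalized counts. Its OXA values were 1499.9 (C1), 820.3 (D1), 1809 (D2), 666 (D3) and 616 (D4). C1 and D2 were above all vehicle libraries and D3 and D4 were below all of them. The means were 994 ± 234 and 1082 ± 539, and the log2 fold change was 0.01 ± 0.28 (limma adjusted p = 0.977), between -0.21 and 0.23 over the other settings.

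Around Arg1, the genes of arginine and polyamine metabolism moved in both directions. Of 18 besides Arg1 16 were tested, 5 were higher and 2 lower, with a median of 0.13. Odc1, which turns ornithine into the polyamine putrescine, rose from 266 ± 25.6 to 477 ± 117 normalized counts, 0.81 ± 0.16 on the log2 scale (limma adjusted p = 0.00209). Azin1, which protects Odc1 from its inhibitor, rose by 0.61 ± 0.14, Amd1, which supplies the aminopropyl groups of polyamines, by 1.46 ± 0.30, and Sat1, which acetylates polyamines, by 0.85 ± 0.21. The lower genes were Oat, the aminotransferase that also uses ornithine, which fell by 0.42 ± 0.12 (limma adjusted p = 0.0188), and Oaz2, an inhibitor of Odc1, which fell by 0.60 ± 0.18 (limma adjusted p = 0.0200). Both were named after their values were seen.

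The untested genes of that list were Arg2 and Nos2, singled out after their values were seen. Arg2, the mitochondrial arginase, had 4 reads in vehicle and 24 in OXA, with an exact permutation p of 0.0556. Nos2, the nitric oxide synthase of classical activation, competes with arginase for arginine. It had 14 and 24 reads, or 2.28 ± 1.72 and 4.16 ± 3.28 normalized counts, with an exact permutation p of 0.468. Levels of these genes lay near the limit that a count of 0 allows.

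Ch25h (ENSMUSG00000050370.4, chromosome 19, 34473486 to 34475135) encodes cholesterol 25-hydroxylase, which makes an oxysterol that restrains cholesterol synthesis and is the precursor of a chemoattractant of lymphocytes. It stood at 2.05 (A1), 10.5 (A2), 7.80 (A3), 10.4 (A4) and 1.43 (A5) normalized counts in vehicle. In OXA it stood at 9.92 (C1), 19.9 (D1), 1.81 (D2), 10.5 (D3) and 17.6 (D4). D2 was as low as the lowest vehicle libraries, and the groups overlapped. The means were 6.43 ± 4.42 and 11.9 ± 7.13 from 45 and 64 reads, and the difference of 0.80 ± 0.64 on the log2 scale was not called (limma adjusted p = 0.371, exact permutation p = 0.246).

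Other genes of the oxysterol pathway moved in both directions or were not called. Of 14 besides Ch25h 12 were tested, 5 were higher, 3 were lower and 4 (Abca1, Nr1h3, Srebf2 and Insig1) were not called, with a median of 0.33. Cyp7b1, which adds the further hydroxyl group that makes the chemoattractant, rose from 18.9 ± 6.27 to 89.8 ± 24.7 normalized counts, 2.21 ± 0.28 on the log2 scale (limma adjusted p = 6.82e-05). Soat1, which esterifies cholesterol for storage, rose by 1.79 ± 0.32 (limma adjusted p = 9.21e-04). Gpr183, the receptor for the chemoattractant and chosen after its values were seen, rose from 8.40 ± 5.49 to 33.8 ± 15.7, or 2.01 ± 0.47 (limma adjusted p = 0.00548). In the other direction, Cyp27a1, a mitochondrial sterol hydroxylase, fell by 1.53 ± 0.27 and Nr1h2, an oxysterol receptor, fell by 1.05 ± 0.16 on the log2 scale.

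RNA of general macrophage markers was also higher in the OXA libraries. All 25 macrophage and monocyte markers were tested, 18 were higher and 0 lower, and their sum was 4573 to 7707 normalized counts in vehicle and 9833 to 17746 in OXA. The 18 included the monocyte genes Ccr2, from 39.9 ± 9.32 to 383 ± 128, and Ly6c2, from 13.4 ± 4.31 to 224 ± 155. The 7 that did not pass were Mertk, Siglec1, Cd14, Lyve1, Cd163, Vsig4 and Timd4, several of which mark resident macrophages. None of the 25 was at 0 in every library.

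Each gene was therefore also set against these markers, as its log2(normalized count + 1) minus the mean log2 value of the 25 markers in the same library. That mean, with none of the 10 genes in it, was 6.17 ± 0.24 in vehicle and 7.51 ± 0.33 in OXA and did not overlap (exact permutation p = 0.00794). Of 9 such tests, exact, two-sided and unadjusted, 8 are given. Pdcd1lg2 is left out, because at 0 reads in 4 vehicle libraries its value there is set by the markers and the pseudocount. Chil4 was higher relative to the markers by 8.85 (exact p = 0.00794) and Chil3 by 1.70 (exact p = 0.00794), in both cases with all OXA libraries above all vehicle libraries. The value of Chil3 carries the limit given above, that the number of its OXA reads that came from Chil4 transcripts was not tested. In A1 it also rests on 2 reads, fewer than the 3 that a count of 0 allows.

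Chil1 was higher by 1.67 (exact p = 0.0397) with overlapping groups, and leaving out A1, A2, A5, C1, D2 or D4 gave exact p of 0.0556 to 0.0794. For 4 genes the difference was small beside the spread: 0.13 for Retnla (exact p = 0.730), 0.01 for Mrc1 (exact p = 0.968), -0.11 for Clec10a (exact p = 0.683) and -0.54 for Ch25h (exact p = 0.476). Ch25h had only 2 reads in A1, 1 in A5 and 1 in D2, so its values there depend largely on the markers and the pseudocount.

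Arg1 was lower relative to the markers. Its value was 3.68 (A1), 3.55 (A2), 3.85 (A3), 3.40 (A4) and 4.29 (A5) in vehicle, and 2.69 (C1), 2.12 (D1), 3.20 (D2), 2.41 (D3) and 1.72 (D4) in OXA. Every OXA library was below every vehicle library. The mean difference was -1.33 (exact permutation p = 0.00794) and stayed between -1.52 and -1.12 with 6 of the 25 markers alone or without any 1 library. This is a rise of the markers by 1.34 while Arg1 itself differed by 0.01, and which cells held Arg1 transcripts was not tested.

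**Figure D4:**
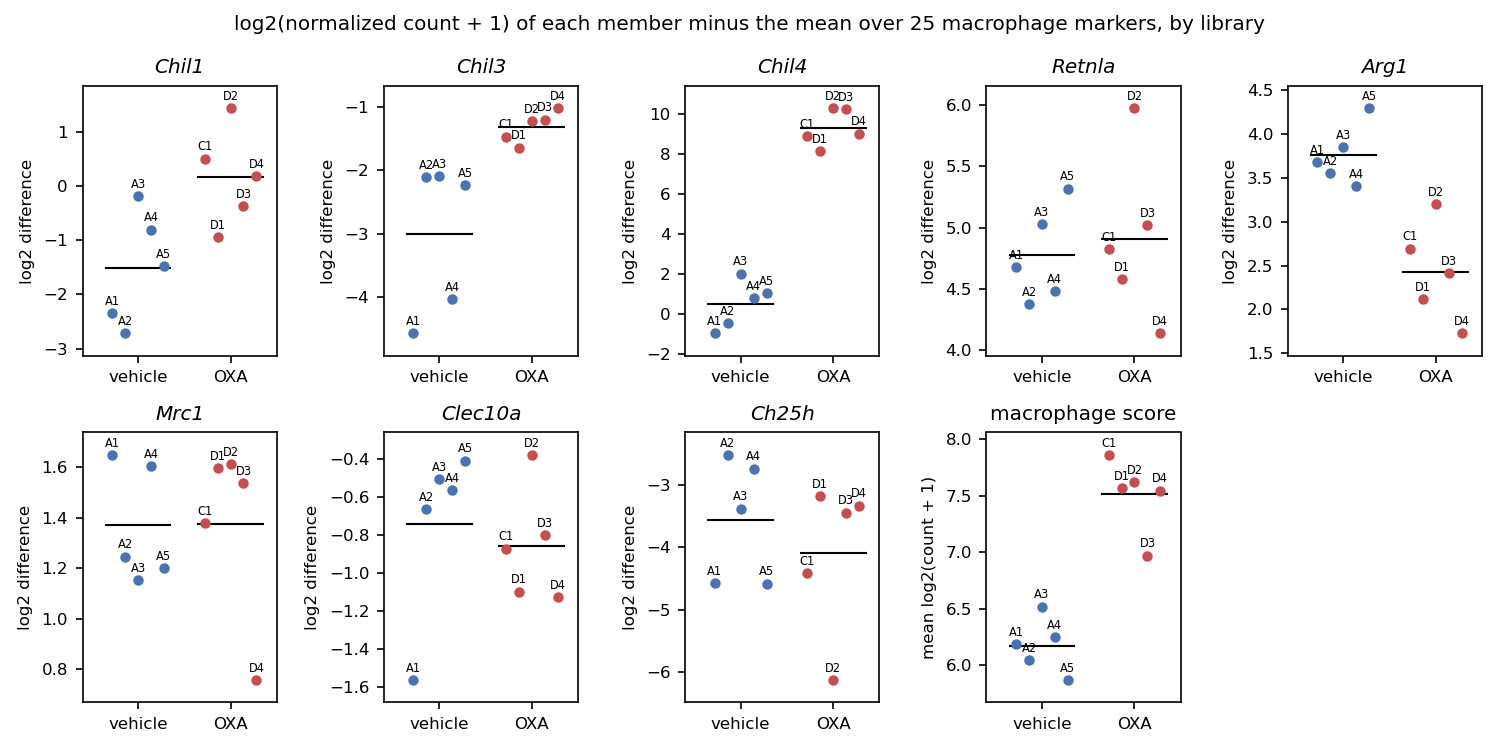
Log2(normalized count + 1) of each gene minus the mean over 25 macrophage and monocyte markers in the same library (points, with library names; bars are group means of 5) for 8 genes, with the marker mean itself in the last panel. Chil4 and Chil3 lie above their vehicle values in every OXA library, Arg1 lies below them, and Mrc1, Clec10a and Retnla overlap.

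Some markers of other cell types that can hold these transcripts moved too. Of 17 dendritic cell markers 16 were tested, 12 were higher and 0 lower, and their sum was 5088 to 13315 normalized counts in vehicle and 24445 to 38749 in OXA. Of 9 eosinophil markers 2 were tested, and 1 of them, Ear6, was higher. The eosinophil sum was 39.0 to 58.5 in vehicle and 108 to 628 in OXA, with Prg3 at 0 in every library. Ear6 carried most of that sum, and Ear2, the other tested gene, was not called. Siglecf, Ccr3, Epx, Prg2, Il5ra and Ear1 did not pass the filter. The part of these cell types in the results on the surface lectins, Pdcd1lg2 and Chil3 was not tested.

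Genes of both textbook macrophage states were among those that rose. Some genes stand in more than 1 list, such as Il4ra, Itgax and Fcgr1. The values are of whole tissue, and which cells held the transcripts of these lists was not tested. Of 40 other genes listed as marks of macrophages activated by interleukin-4, 35 were tested, 14 were higher (Cdh1 among them) and 1 lower, with a median of 0.26. Alox15, a lipoxygenase of eosinophils, epithelia and macrophages, rose from 6.45 ± 13.6 to 1148 ± 1232 normalized counts, 8.18 ± 0.91 on the log2 scale (limma adjusted p = 2.32e-05). Socs1, which damps signalling of cytokine receptors, rose by 2.59 ± 0.18, Itgax, an integrin of dendritic cells and macrophages, by 1.80 ± 0.23, and Il4ra, the receptor chain itself, by 1.69 ± 0.20.

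Of 26 genes of classical activation, the state driven by interferon-gamma and microbial products, 18 were tested, 13 were higher and 0 lower, with a median of 2.11. Cxcl9, an interferon-induced chemokine, rose from 24.1 ± 39.3 to 598 ± 237 normalized counts, 5.86 ± 0.78 on the log2 scale (limma adjusted p = 9.36e-05). Saa3, an acute-phase protein, rose by 4.09 ± 0.59, Gbp2, a guanylate-binding protein, by 2.48 ± 0.30, and Irf1, an interferon regulatory factor, by 2.19 ± 0.27. The difference between these 2 lists was not tested.

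Of 22 genes of the type 2 cytokine and Stat6 pathway, 16 were tested, 7 were higher and 0 lower, with a median of 0.73. The cytokines Il4, Il5, Il13, Il9 and Il25 and the receptor Il13ra2 did not pass the filter. In every library 2 genes of the list were at 0. Stat6 itself was not called (0.16 ± 0.16, limma adjusted p = 0.478), nor were Jak1, Jak2 and Tyk2. The phosphatase Ptpn6, which limits receptor signalling, rose by 2.03 ± 0.22 on the log2 scale. Il2rg, the common gamma chain, rose from 59.7 ± 25.4 to 218 ± 68.0 normalized counts, and Il1rl1, the receptor of interleukin-33, from 20.1 ± 4.84 to 55.8 ± 10.3.

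**Figure D5:**
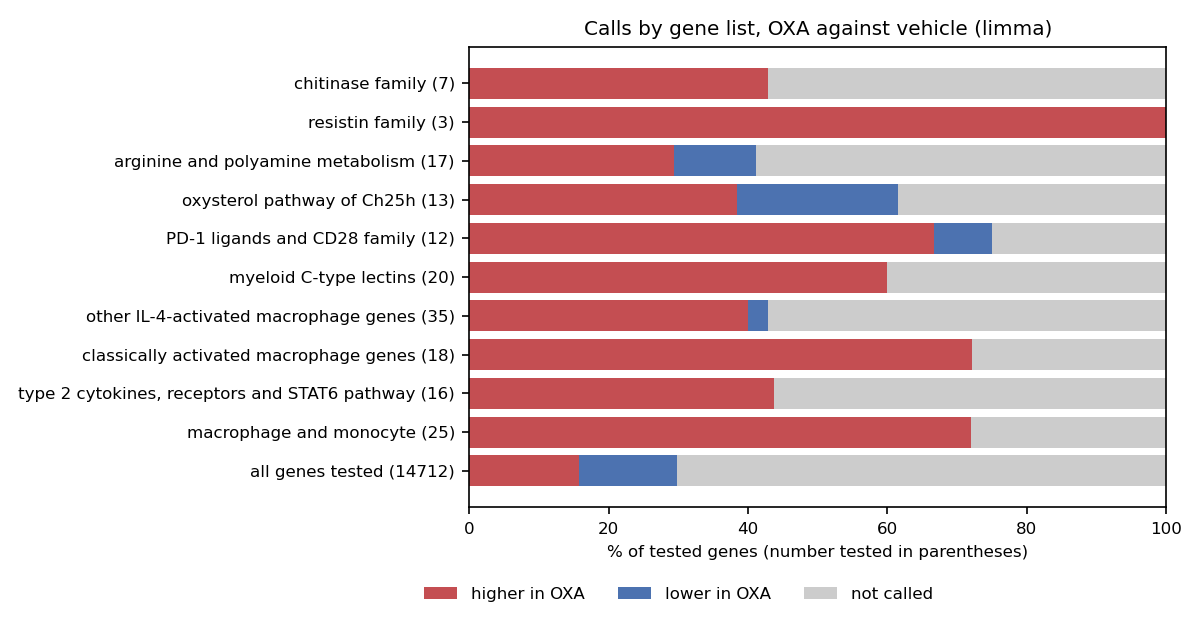
Share of the tested genes of each list, in percent, that limma called higher (red), lower (blue) or neither (grey) in OXA, with the number tested in parentheses and all 14712 genes tested at the bottom. The lists drawn are the pathway lists, each with the genes of interest it contains, and the macrophage markers. Among those drawn, the resistin family (3 of 3), classical activation (13 of 18) and macrophage markers (18 of 25) have the largest red share. Some of the genes counted passed the filter through their OXA libraries alone.

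The nearest profiles differed from gene to gene. For each gene, likeness was measured as the root mean square distance between log2(normalized count + 1) profiles over the 10 libraries, each centred on its own mean, among tested genes with a mean of at least 20. The nearest to Chil4 were the injury keratins Krt6b, at a distance of 1.01, and Krt16, at 1.182. Nearest to Chil3 were the mitotic kinesin Kif14 (0.52) and the uridine phosphorylase Upp1 (0.60). Chil1 lay nearest to 2310046K23Rik (0.60) and the interferon-induced GTPase Ifi47 (0.60).

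Retnla lay nearest to the cornified envelope gene Sprr1a (0.30) and the sialyltransferase St3gal4 (0.32). Arg1 lay nearest to the fibroblast matrix gene Dpt (0.20) and the endothelial gene Ecscr (0.20). Mrc1 lay nearest to Map3k14 (0.21), a kinase of the noncanonical NF-kappaB pathway, and Fgl2 (0.26), and Clec10a to Fam114a1 (0.17) and the Fc receptor Fcgr3 (0.22). The low genes Pdcd1lg2 (Elf3 at 0.70, A930003A15Rik at 0.76) and Ch25h (Vmn2r59 at 0.54, Gm29666 at 0.56) had more distant neighbours. All 10 libraries enter these distances, so a gene that differs between the groups is nearest to genes that differ as much.

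Within groups, some libraries were high or low for several of the genes at once. A3 was the highest vehicle library for Chil1, Chil3, Chil4, Retnla, Arg1, Clec10a and, by a single read, Pdcd1lg2. D2, the shallowest library, was the highest OXA library for Chil1, Chil4, Retnla, Arg1 and Clec10a, but the lowest for Ch25h. D4 was the lowest OXA library for Retnla, Arg1, Mrc1 and Pdcd1lg2, but the highest for Chil3. Without A5, D2 and D4, the shallowest libraries, all 7 calls remained.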

How the data were processed

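RNA of whole esophagus was read with CEL-Seq in 5 vehicle and 5 OXA libraries, per the labels' protocols. The unit is a signal made by the authors: normalized counts, reads divided by a library size factor and rounded to 2 decimals. Tools named per the submitters' processing notes, with build GRCm38, were DESeq2 1.18.1, HTSeq 0.11.2, Bowtie2 2.2.6, TopHat2 2.1.0, cutadapt 1.10, Trim Galore and FastQC 0.11.5. None of the sources used here gives the annotation, the strand setting, the handling of reads that match several genes or any molecular identifiers. Gene spans in the table reached 300 bases past the GENCODE M21 3′ end for 8 of the 10 genes.

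Divided by a step per library, 100% of the values came out whole (tolerance 0.006), and median-of-ratios factors equalled the steps within 2.37e-08. On these reads, edgeR 4.0.16 called 2411 genes higher and 1972 lower, and DESeq2 1.42.0 called 2627 and 2249. The test used here was limma 3.58.1 (R 4.3.3; lmFit, eBayes with a trend, two-sided) on log2(value + 1) of the 14712 genes that averaged 5 or more, with Benjamini-Hochberg adjusted p under 0.05 called (2309 higher, 2085 lower). It was tested on simulated data. Intervals and limits at a count of 0 cover counting error only.

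The 10 genes and the lists were chosen with earlier results of these data known. Named genes were the 10, every gene of the chitinase and resistin families, up to 4 genes of each other list with the smallest p, markers beside a result, and for each gene the 2 nearest profiles. Alternatives were other pseudocounts, filters, scalings, tests and left-out libraries. Replicates were compared before averaging: the closest pair of 1 group differed by a chi-square of 5.54 per degree of freedom, so no library counts as a repeat deposit. The letters in the titles (A, C, D) fall within treatment, so any batch they mark and the treatment cannot be told apart.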

Additional observations from a re-analysis of the deposited data

Results flagged for a closer look

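Among the 17 sets of 5 values examined (a gene in a group, with at least 2 values above 0), 1 held a value that Dixon's criterion set apart. Chil4 in A3 was 370.26 normalized counts. The gap to the next vehicle library, A4 at 131, took up 0.715 of the range of the vehicle group, slightly more than Dixon's criterion allows. The criterion was applied to untransformed counts and not on the log2 scale of the other results, where high values stand out less. Chance sets about 1 in 20 such groups apart. A3 still lay far below the lowest OXA library, D1 at 54495.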

How the results depend on the processing

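The calls of Chil1, Chil3, Chil4, Retnla, Mrc1 and Clec10a kept direction and side of the threshold under all 23 other settings, and that of Pdcd1lg2 under the 19 that gave a value. Under the other 4 Pdcd1lg2 did not pass the filter, which left 6 of the 10 genes called. Over these settings 1853 to 2982 genes were higher and 1490 to 2537 lower. The log2 fold changes of Arg1, Chit1, Ctbs and Mgl2, none of them called, changed sign in some settings, and those of Ch25h, Chid1 and Ovgp1 did not. Leaving out 1 library at a time, Arg1 ran from -0.21 to 0.18, Chit1 from -0.29 to 0.13, Ctbs from -0.0317 to 0.52 and Mgl2 from -0.19 to 0.52. Chit1 was 0.0207 with CPM, 0.00705 with array weights and 0.0912 with the replicate block, and Ctbs was -0.19 without A5, D2 and D4 and -0.0931 with the block. The cause was not tested. Relative to the macrophage markers, leaving out 1 library gave -0.14 to 0.32 for Retnla and -0.0524 to 0.16 for Mrc1, and Clec10a was 0.0910 with 6 markers. Whether the number in the title pairs libraries was not settled. Deviations of same-numbered libraries correlated between -0.23 (A2 and D2) and 0.19 (A1 and D1), which neither shows nor excludes pairs. With that number as a replicate block, 1853 genes were higher and 1490 lower, the 7 genes stayed called, and Retn did not pass (limma adjusted p = 0.0601). In that fit A1, C1 and D1 share a block, and A5 stands alone in its block and adds nothing to the difference. Of 414 counts of calls per list under other settings, 396 were within 1.5 times the reported count. Retnlb, Chil5, Chil6, Chia1, Arg2 and Nos2 are limited by depth.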
